A study of Mus musculus with 8 samples.

Results

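Liver genes that depend on the pulses of growth hormone were followed in 4 male mice of the C57BL/6J strain, M24, M48, M50 and M60 by name. The list held 10 genes: the major urinary protein genes Mup3, Mup20 and Mup21, the cytochromes P450 Cyp2d9 and Cyp2u1, Nudt7, Keg1, Susd4, Selenbp2 and Moxd1. They were listed by name with earlier results of these data known, and the probe of each gene was chosen by its highest mean over the 8 arrays. Each of the 9 genes found had 1 single-symbol probe, so that choice changed nothing. Mup20 had no single-symbol probe and was not analysed here, which left 9 of the 19938 genes so represented on the array. All mice had been injected with an adeno-associated virus (AAV) vector when 2 to 3 months old, were kept on a normal diet and were killed 18 months later. The sources used here give neither the cargo nor the dose of the vector. From each mouse a piece of hepatocellular carcinoma and a piece of adjacent liver were profiled, giving 4 tumor and 4 adjacent samples on 1 array each. The adjacent samples are therefore liver of injected, tumor-bearing mice, and no liver of untreated mice was analysed here.

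In male rodents the pituitary releases growth hormone in separate bursts. Each burst activates the receptor Ghr and the kinase Jak2 in hepatocytes, and these activate the transcription factor Stat5b, which enters the nucleus and switches on many genes that are more active in male than in female liver. Female liver sees growth hormone almost continuously and keeps many of these genes low. Major urinary proteins are lipocalins that the liver secretes in bulk and that carry pheromones in urine. Growth hormone itself was not measured, so the name of the group rests on what is known of these genes and not on these arrays.

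Parts of the control regions are shown first, for the 4 genes whose promoters hold recognition letters searched for. The promoter sequences are those of RefSeq on GRCm38.p6, and 8 of the 10 genes matched the table. The search covered the 250 bases before the start, on both strands, for TTCNNNGAA, the letters recognised by Stat5, and for ATTGAT, the core recognised by the factors Onecut1 (HNF6) and Cux2. These motifs do not overlap in the windows shown. Capitals mark the matches, and all sequences read 5′ to 3′ on the strand of the gene.
Mup3 (chr4:62087400-62087491, minus strand): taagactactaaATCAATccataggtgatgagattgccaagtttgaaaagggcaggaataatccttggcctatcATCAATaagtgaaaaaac
Mup21 (chr4:62150918-62151009, minus strand): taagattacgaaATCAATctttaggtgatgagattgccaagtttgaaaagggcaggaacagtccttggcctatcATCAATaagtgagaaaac
Keg1 (chr19:12695605-12695703, plus strand): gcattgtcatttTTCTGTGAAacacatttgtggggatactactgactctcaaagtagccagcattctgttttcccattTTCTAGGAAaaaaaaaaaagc
Moxd1 (chr10:24223355-24223387, plus strand): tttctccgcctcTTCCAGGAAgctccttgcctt

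The Mup3 and Mup21 stretches were identical at 85 of 92 positions (92.4%), and both held 2 matches to ATTGAT, read on the other strand, whose starts lay 62 bases apart. All 14 Mup promoters in the table held at least 2 such matches, against 0.609% of the 32851 promoters, with 6.72% holding at least 1. Mup genes are copies of each other, so these 14 are not separate cases. The Stat5 letters were found in the windows of Keg1, with 2 matches, and Moxd1, with 1. They were in 7.02% of all promoters, and 2 or more matches were in 0.317%. Each motif was thus found in 2 of the 8 genes matched, and in Cyp2d9, Susd4, Selenbp2 and Nudt7 neither was in the window. A match is a description of letters and no evidence of binding, and no match says nothing of the factor.

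The tumors had lower levels of nearly all of these genes than the adjacent liver of the same mouse. Of the 8 genes tested, 7 fell and 1, Selenbp2, rose, where a call means an adjusted p under 0.05 in limma over all 11963 tested genes. Of all tested genes, 15.7% were called lower and 16.3% higher. The genes were listed with these results known, so the counts are a description of the list and no independent support for it. Levels are log2 values. A difference is the tumor level less the adjacent level of the same mouse, in log2 units, averaged over n = 4 mice and given with the standard error (SE) of the fit. The median difference was -1.80 over the 8 genes and 0.0008 over all tested genes. The filter on low values kept the upper 60% of genes by mean level, which lay above a log2 level of 4.60. Moxd1 did not pass it. Susd4 passed it only through the adjacent samples, its tumor mean of 4.38 lying below it. In pieces of tissue, fewer cells that express a gene and less RNA per cell cannot be told apart.

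**Figure D1:**
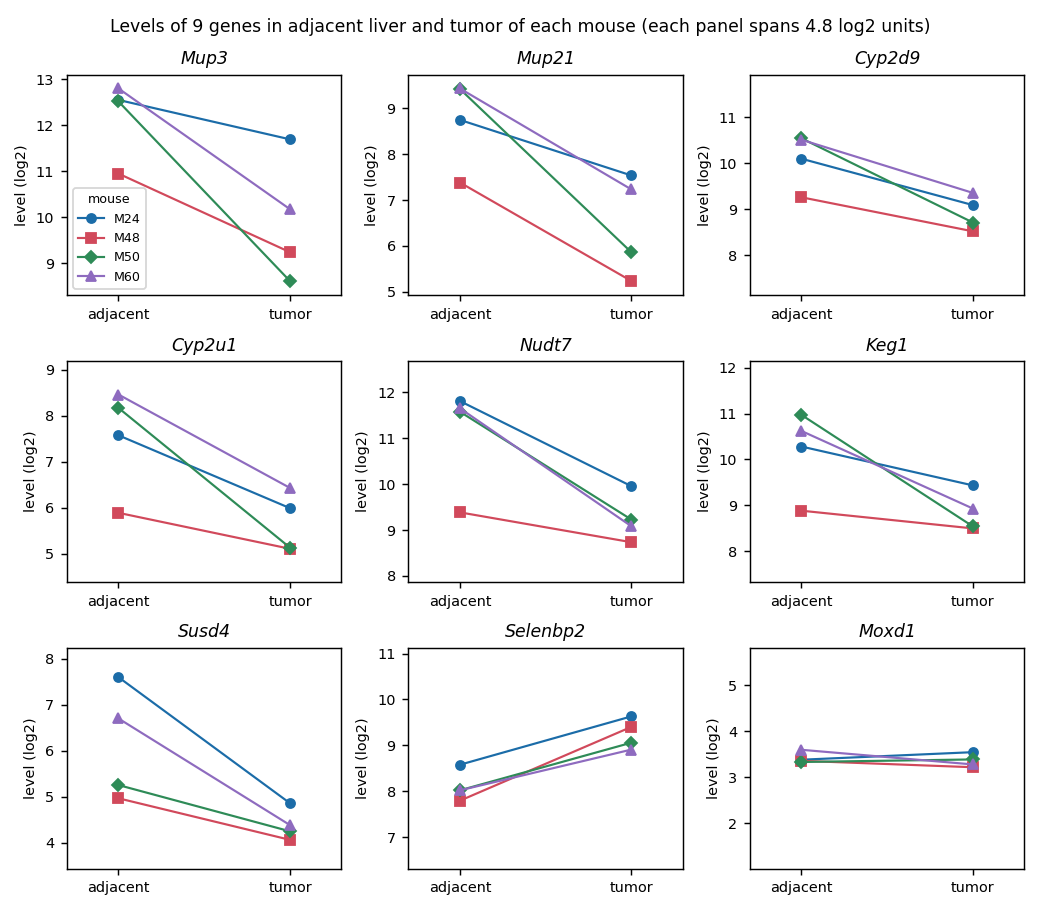
Log2 level (vertical axis) of each of the 9 genes in adjacent liver and tumor, with a line for each of the 4 mice and panels of equal height. Lines fall for 7 genes in all 4 mice and rise for Selenbp2, Moxd1 stays between 3.22 and 3.60, and the adjacent point of M48 is the lowest of the 4 adjacent points in the panels of the 8 tested genes.

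Mup3 (probe 10513529) stood at 12.55, 10.95, 12.52 and 12.80 in the adjacent liver of M24, M48, M50 and M60, and at 11.70, 9.24, 8.61 and 10.17 in their tumors. The adjacent value of M48 was below that of the tumor of M24, so the groups overlapped, although the level was lower in the tumor of every mouse. Mup3 fell by 2.28 (SE 0.445, adjusted p = 0.0102), which leaves 20.6% of the adjacent level. The paired differences ran from -0.86 in M24 to -3.91 in M50, the widest range among these genes.

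Mup21 (probe 10513538), also on chromosome 4, had adjacent levels of 8.74, 7.38, 9.42 and 9.43 and tumor levels of 7.53, 5.24, 5.86 and 7.23, in the same order of mice. As for Mup3, the adjacent sample of M48 lay among the tumors. Mup21 fell by 2.28 (SE 0.334, adjusted p = 0.00366), with paired differences from -1.21 in M24 to -3.56 in M50. Mup genes are near copies, so the probes of Mup3 and Mup21 may take up signal from each other or from other Mup genes, and each value is uncertain as that of 1 gene. Mup5 was the other Mup gene of 19 sought that had a single-symbol probe. It fell by 0.68 (adjusted p = 0.0349), and that call was lost without M24 (adjusted p = 0.0938), M50 (0.125) or M60 (0.123). A further 7 probes are shared by several Mup genes or pseudogenes. All 7 were lower in the tumor of each of the 4 mice, by mean differences from -0.94 to -2.22, and they carry no gene name here.

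Cyp2d9 (probe 10425763), a steroid hydroxylase of male mouse liver, had adjacent levels of 10.10, 9.26, 10.54 and 10.51 and tumor levels of 9.09, 8.52, 8.71 and 9.35. It fell by 1.19 (SE 0.172, adjusted p = 0.00359), to 44.0% of the adjacent level. Its paired differences ran from -0.74 to -1.84. Cyp2u1 (probe 10502214), which hydroxylates long fatty acids, had adjacent levels of 7.57, 5.89, 8.17 and 8.46 and tumor levels of 5.99, 5.10, 5.13 and 6.43. It fell by 1.86 (SE 0.327, adjusted p = 0.00698), and its difference was -0.78 in M48 against -1.59 to -3.04 in the other mice. For both P450 genes the adjacent sample of M48 lay inside the range of the tumors, and the other 3 adjacent samples lay above it.

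Nudt7 (probe 10575685) encodes a peroxisomal enzyme that cleaves coenzyme A. Its adjacent levels were 11.81, 9.38, 11.57 and 11.65, and its tumor levels 9.95, 8.73, 9.23 and 9.08. The adjacent values of M24, M50 and M60 lay close together, with an SD of 0.119, and that of M48 was 2.29 below their mean and inside the range of the tumors. Nudt7 fell by 1.86 (SE 0.297, adjusted p = 0.00507), by 2.26 when M48 was left out, and by 0.65 within M48.

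Keg1 (probe 10461758), of the glycine N-acyltransferase family, had adjacent levels of 10.28, 8.89, 10.97 and 10.62 and tumor levels of 9.44, 8.50, 8.54 and 8.93. It fell by 1.34 (SE 0.313, adjusted p = 0.019), from -0.39 in M48 to -2.43 in M50. The call was lost without M60 (adjusted p = 0.0722).

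Susd4 (probe 10352439), a membrane protein that restrains complement, had adjacent levels of 7.60, 4.96, 5.25 and 6.70 and tumor levels of 4.86, 4.06, 4.24 and 4.38. It was the gene among the 7 that fell whose groups did not overlap, a pattern found in 15.6% of all tested genes. It fell by 1.74 (SE 0.323, adjusted p = 0.00832). Its adjacent level was low in M50 as well as M48, unlike in the other genes that fell, and was highest in M24, as for Nudt7. Its tumor values lie near the filter value.

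Selenbp2 (probe 10494085), a selenium-binding protein of the liver, went the other way. Its adjacent levels were 8.58, 7.80, 8.02 and 8.02, and its tumor levels 9.63, 9.40, 9.06 and 8.91. All tumors were above all adjacent samples, as for 14.9% of tested genes. It rose by 1.15 (SE 0.129, adjusted p = 0.00154), with paired differences of 1.05, 1.61, 1.04 and 0.89. Selenbp1, the closest gene to it by name, stood at 0.33 (adjusted p = 0.0791), and at 0.35 (adjusted p = 0.0474) after quantile normalization. The probes of this pair may share signal.

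Moxd1 (probe 10362186), a relative of dopamine beta-hydroxylase, was measured at 3.38, 3.36, 3.33 and 3.60 in adjacent liver and at 3.54, 3.22, 3.39 and 3.28 in tumors. All 8 values lay below the filter value, so it was not tested. Its mean difference was -0.06, with 2 mice lower and 2 higher.

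**Figure D2:**
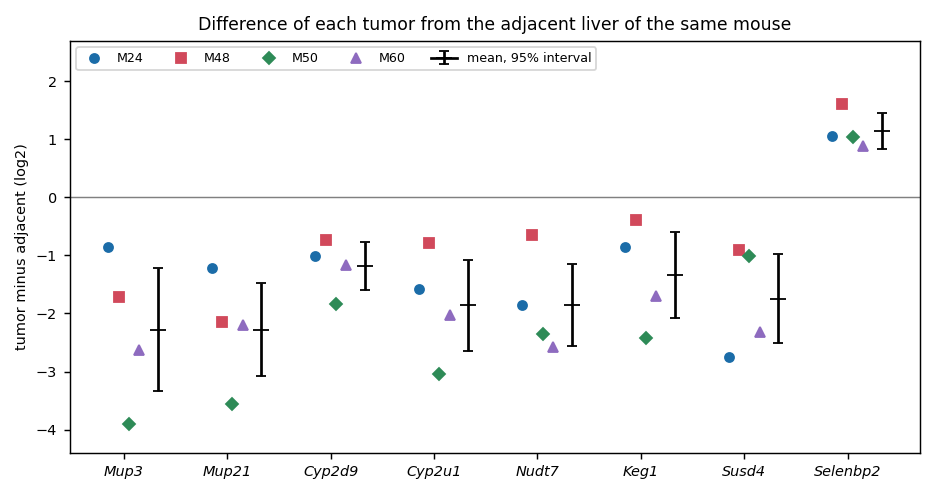
Tumor minus adjacent level (log2) of the 8 tested genes, with a symbol for each mouse and, in black, the mean with the 95% interval of limma. M50 has the largest fall for Mup3, Mup21, Cyp2d9, Cyp2u1 and Keg1, and M48 has the smallest fall for Cyp2d9, Cyp2u1, Nudt7, Keg1 and Susd4.

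The adjacent samples differed among themselves, and M48 stood lowest. Its adjacent liver had the lowest adjacent level of all 8 tested genes. Over all tested genes, M48 was the lowest of the 4 adjacent samples in 33.9%. Relative to the mean of the other 3 adjacent samples, M48 was lower by 2.29 for Nudt7, 2.18 for Cyp2u1, 1.82 for Mup21, 1.74 for Keg1, 1.68 for Mup3, 1.55 for Susd4, 1.13 for Cyp2d9 and 0.41 for Selenbp2. A difference of at least 1 in that direction was seen for 7 of the 8 genes and for 174 (1.45%) of all tested genes. These values compare 1 sample with 3, so they are a description with no test.

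The standard deviation (SD) over the 4 adjacent samples was 0.598 for Cyp2d9 to 1.24 for Susd4 among the genes that fell. These values lie at percentiles 96.5 to 99.6 of all tested genes, whose median SD was 0.155. Selenbp2 had an SD of 0.333, at percentile 86.8. With M48 set aside, the SD over the other 3 was 0.119 for Nudt7, 0.155 for Mup3 and 0.248 for Cyp2d9, but still 1.18 for Susd4. Of the 7 genes that fell, 6 had the adjacent level of M48 inside the range of the 4 tumors. Among all 1874 genes called lower this held for 11.1%. For M24, M50 and M60 it held for 0 of the 7 genes, and for 6.83%, 3.95% and 2.99% of the genes called lower. All 4 tumors lay below the 3 adjacent samples other than M48 for all 7 genes, as for 89.6% of the genes called lower. Without M48 the fit still called these 7 genes lower and Selenbp2 higher.

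**Figure D3:**
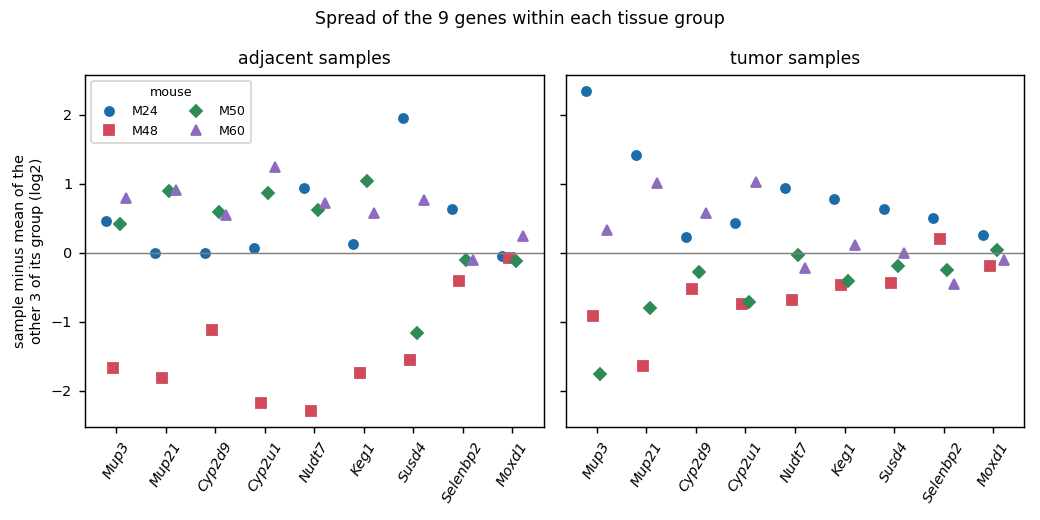
Each sample's level minus the mean of the other 3 samples of its tissue group (log2), for adjacent liver and tumor, with a symbol for each mouse. M48 is the lowest adjacent sample for the 8 tested genes, by up to 2.29 for Nudt7, while among tumors M24 is the highest for Mup3 by 2.35.

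The tumors also varied. The tumor of M24 kept the highest Mup3, Mup21, Nudt7, Keg1, Susd4 and Selenbp2 of the 4, and that of M60 the highest Cyp2d9 and Cyp2u1. Mup3 had the widest spread, with an SD of 1.34 over the tumors against 0.847 over the adjacent samples. For the other genes that fell, apart from Mup21 (1.10 in tumors and 0.962 in adjacent samples), the SD was smaller in tumors.

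Other genes known to be higher in male liver were read beside these. Of 30 listed, 26 were tested, of which 18 fell and 2 rose, with a median difference of -1.23. Without M48, 21 fell, and 13 fell without M24, without M50 or without M60, with 2 higher each time. The 4 with the smallest p were the oxysterol hydroxylase Cyp7b1 (-4.12), the pseudogene Serpina4-ps1 (-4.35), the acetyltransferase Nat8 (-2.32) and the retinol dehydrogenase family gene Dhrs9, which rose by 1.62. Serpina4-ps1 passed the filter only through the adjacent samples, with a tumor mean of 4.01. The same held for Sult5a1, also among the 18 that fell, with a tumor mean of 4.16. M48 had the lowest adjacent level in 22 of the 26. Further genes were picked out after their values were seen, for their spread among adjacent samples. The organic anion transporter Slco1a1 was at 3.40 in M48 and at 10.09, 10.77 and 10.78 in M24, M50 and M60. The fatty acid elongase Elovl3 was at 3.57 against 9.29, 11.57 and 10.77. Hsd3b5, of steroid metabolism, was at 3.63 against 7.25, 7.61 and 8.54. Their falls in tumors, by 3.65, 4.03 and 3.09 (adjusted p = 0.0457, 0.0276 and 0.0179), were each lost without M24, M50 or M60, at adjusted p from 0.0535 to 0.141. Those of Slco1a1 and Elovl3 were also lost with no replicate block (adjusted p = 0.129 and 0.096), and that of Slco1a1 with no filter on low values (adjusted p = 0.0553). Without M48, Slco1a1, Elovl3 and Hsd3b5 were called lower, at -5.01, -5.18 and -4.07 (adjusted p = 0.00689, 0.00912 and 0.00114). Within M48 Slco1a1 was higher in the tumor, by 0.42. Hsd3b5 passed the filter only through the adjacent samples, with a tumor mean of 3.66.

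Genes known to be higher in female liver went both ways in the tumors. Of 33 listed, 17 were tested, of which 7 rose and 5 fell, with a median difference of -0.09. The 4 genes with the smallest p all rose. The peroxisomal transporter Abcd2 rose by 2.46, the stem cell marker Prom1 by 2.29, the steroid hydroxylase Cyp17a1 by 3.57 and lipoprotein lipase (Lpl) by 2.66. The groups of Prom1 overlapped, with 6.36 in the adjacent liver of M48 and 5.83 in the tumor of M50. Among the 5 that fell the largest difference was -2.94, that of Slc22a26. Its tumor mean of 4.596 lay just below the filter value of 4.5965, so it passed only through the adjacent samples. Its adjacent level was highest in M48, at 9.43, and its mean difference without M48 was -2.36. The adjacent sample of M48 had the highest adjacent level in 9 of the 17 tested genes, against 31.2% of all tested genes, and the lowest in 3. Cux2, a repressor of male-biased genes found mainly in female liver, was at 6.32 in the adjacent liver of M48 and at 5.07, 5.08 and 5.18 in that of M24, M50 and M60. In tumors it ran from 4.94 to 5.24 (difference -0.36, adjusted p = 0.181). A1bg, named after its values were seen, was at 5.22 in M48 against 3.14 to 3.48 in the other adjacent samples. It did not pass the filter.

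Genes of growth hormone signalling were listed together, from the receptor to the products and inhibitors of the signal. Of 23 listed genes 22 were tested, of which 10 fell, 2 rose and 10 were not called, with a median difference of -0.33. Fewer fell when any mouse was left out: 6 without M24, 5 without M48, 6 without M50 and 5 without M60. The receptor Ghr was at 11.56, 10.96, 11.38 and 11.41 in adjacent liver and at 10.27, 9.90, 10.26 and 9.98 in tumors. Its groups did not overlap, and it fell by 1.23 (SE 0.0929, adjusted p = 0.000444). Stat5b was at 7.97, 7.87, 8.15 and 8.13 in adjacent liver and at 7.53, 7.57, 7.37 and 7.44 in tumors, and fell by 0.55 (adjusted p = 0.0095). Jak2 stood at 0.16 (adjusted p = 0.261) and Stat5a at -0.11 (adjusted p = 0.445).

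Among the products of this signal, Igfals, which holds insulin-like growth factor in the blood, fell by 2.56 (adjusted p = 0.000119), and Igf1 by 1.22 (adjusted p = 0.0136, and 0.0585 without M50). Igfbp3, a binding protein for that factor, rose by 1.17. Of the feedback inhibitors, Socs2 fell by 0.998 (adjusted p = 0.0477), a call lost under 7 of the 11 alternatives, at adjusted p from 0.0527 to 0.158. Cish, another inhibitor, stood at -0.19 (adjusted p = 0.519), and at -0.45 (adjusted p = 0.0455) without M50. The repressor Bcl6 stood at -0.60 (adjusted p = 0.115), and at -0.88 (adjusted p = 0.0194) without M48. In the adjacent liver of M48, Igfals (9.15), Igf1 (10.95) and Stat5b (7.87) lay within 0.21 of the mean of the other 3, while Ghr was 0.49 and Bcl6 1.44 lower and Socs2 1.12 higher.

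Relatives of these genes by name were also read. Of 21 listed, 15 were tested, of which 5 fell and 0 rose, with a median of -0.26. At an unadjusted p under 0.05 in limma 1 was higher, and after quantile normalization 1 was called higher. Cyp2d13 fell by 1.54, Glyat, a relative of Keg1, by 1.02, the peroxisomal Nudt12 by 0.69 and Gm4952 by 1.42. Of the other Cyp2d genes, Cyp2d10 stood at -0.26 (adjusted p = 0.0561, and 0.0462 under the stricter filter and 0.0412 with array weights), Cyp2d40 at -0.57 (adjusted p = 0.144, and 0.00264 without M48), Cyp2d22 at -0.05 (adjusted p = 0.734) and Cyp2d26 at 0.12 (adjusted p = 0.323). The Cyp2d genes are close copies whose probes may share signal.

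Markers of other cells and states were read for the adjacent liver of M48, where the 8 genes were low. Hepatocyte markers had mean levels of 12.96, 12.92, 12.95 and 13.02 in the adjacent samples of M24, M48, M50 and M60 and of 12.59 to 12.84 in tumors, over 13 genes. For 7 of the 13 M48 was the lowest adjacent sample and for 4 the highest. Over all tested genes M48 was the lowest adjacent sample in 33.9% and the highest in 31.2%. Of 7 markers chosen for being high in these tumors, M48 was the highest adjacent sample for 4, with a median deviation of 0.49 from the other 3. Their mean was 5.01 in M48 and 4.62 to 4.83 in the other adjacent samples, against 9.72 to 10.50 in tumors. Akr1c18 was at 3.08 in M48 and at 3.02 to 3.33 in the other adjacent samples, against a tumor mean of 11.65. Macrophage markers were higher in M48, with a mean of 8.93 against 8.33 in M24, 7.01 in M50 and 7.23 in M60, and M48 was the highest adjacent sample for 8 of 9. Stellate cell and fibroblast markers had a mean of 7.57 in M48 against 7.06, 7.34 and 6.64, and M48 was the highest for 8 of 10. It was also the highest for 3 of 4 lymphocyte markers tested. For endothelial markers M48 was the highest for 4 of 9 and the lowest for 3, and for bile duct cell markers the highest for 1 of 4 tested. Acute phase genes had a mean of 11.78 there, against 11.02, 10.36 and 10.81, and M48 was the highest for 22 of 25. The metallothionein Mt2 was at 12.48 against 7.12 to 9.20 and the inhibitor Socs3 at 8.44 against 6.24 to 7.25. Both were named after their values were seen. The part of these in the low levels of M48 was not tested.

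Between tumor and adjacent liver, the cell markers moved as follows. Of the markers of stellate cells and fibroblasts 6 of 10 rose, of endothelium 4 of 9 and of bile duct cells 2 of 4 tested. Of 9 macrophage markers 4 fell and 1 rose. Of 4 lymphocyte markers tested, 0 were called, with 3 at an unadjusted p under 0.05 in limma. Of 25 acute phase genes 8 fell and 5 rose, and of 13 hepatocyte markers 5 fell and 1 rose. The mean for bile duct cells was taken over the 6 markers with a probe, of which 4 were tested. It ran from 4.71 to 4.87 in adjacent samples and from 4.91 to 6.05 in tumors. The mean for stellate cells and fibroblasts ran from 6.64 to 7.57 in adjacent samples and from 7.85 to 8.50 in tumors. Their part in the differences of the 8 genes was not tested.

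**Figure D4:**
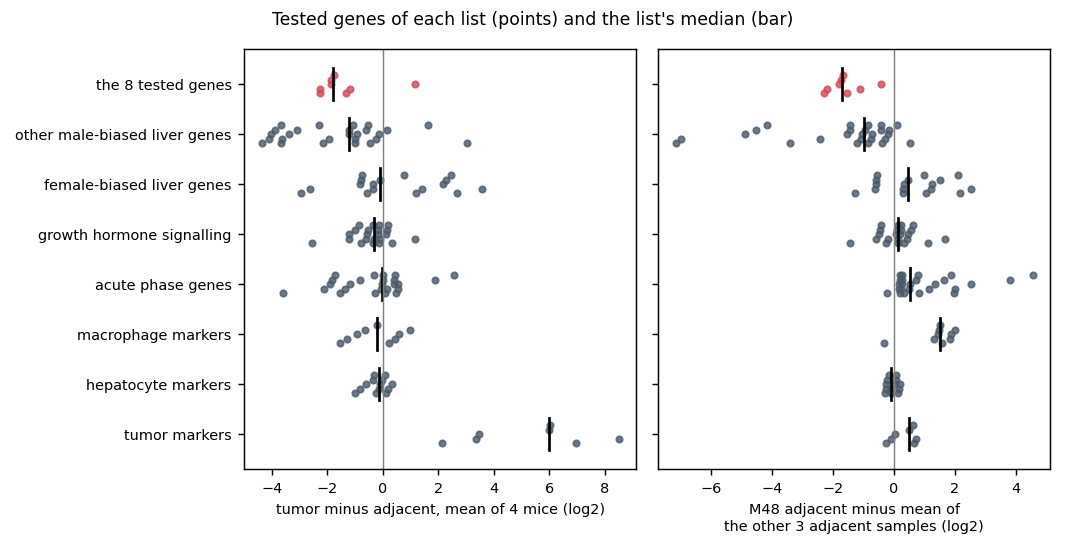
Tested genes of each list as points with the median as a bar, on the left as tumor minus adjacent averaged over 4 mice, on the right as the adjacent level of M48 minus the mean of the other 3 adjacent samples (both log2). The 8 genes have medians of -1.80 and -1.71, other male-biased genes -1.23 and -0.99, and macrophage markers -0.20 and 1.51.

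The tested genes outside the list whose levels followed each of the 8 most closely were looked up by Pearson's r over the 8 samples. The ranking is a description, since samples of a tissue and of a mouse share their source. The closest to Nudt7 was the uridine-cytidine kinase Uck1 (r = 0.997), followed by the mitochondrial Lactb2 (0.995). The closest to Susd4 was Psmg3 (0.995) and to Mup21 Ctif (0.994). Keg1 was followed by Adh6-ps1 (0.989), Cyp2u1 by Fahd2a (0.988), Selenbp2 by Tarbp1 (0.988), Cyp2d9 by Cpox of haem synthesis (0.985) and Mup3 by Sdhd of the respiratory chain (0.984). Cpox was also among the 3 closest to Cyp2u1 (0.988), and the male-biased fatty acid hydroxylase Cyp4a12b among those of Cyp2d9 (0.984). Sdr9c7 (0.981), C2cd2l (0.967), Slc16a6 (0.983), Fam149a (0.988), Dnajc28 (0.984) and Adra1b (0.979) were further genes among the 3 closest to Mup21, Susd4, Selenbp2, Keg1, Cyp2u1 and Mup3. These are the highest among the 11963 tested genes with the listed genes left out, over 8 samples and with no test. A listed gene may therefore follow another listed gene more closely than those named. Pearson's r takes no account of the size of a change. Of the first-ranked genes, Sdhd (-0.19, adjusted p = 0.141) and Psmg3 (-0.25, adjusted p = 0.109) were not called. Lower-ranked genes among the 3 closest that were not called were Nf2 for Mup3 (-0.26, adjusted p = 0.117), Ccdc28b for Susd4 (-0.16, adjusted p = 0.193) and Ndufs4 for Nudt7 (-0.17, adjusted p = 0.142). The others among the 3 closest were called between tumor and adjacent liver.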

How the data were processed

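The values are log2 expression levels as deposited by the authors, in 1 table of 28874 probes by 8 samples, with 0.2 ug of RNA labelled per sample. MAS5 is named in the submitters' processing notes without saying what it was used for, and other steps were not given in the sources used here. The samples' medians lay between 4.89 and 5.01, and no further scaling was applied. No detection calls or scan dates were used, and the number of arrays limits the precision.

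Genes were named from the annotation of the array's probes. The probe with the highest mean stood for each of 19938 genes with a single-symbol probe, and the lowest 40% by mean were left out. The remaining 11963 genes were fitted with limma 3.58.1 in R 4.3.3 (lmFit, eBayes with trend), with the mouse as a replicate block (residual degrees of freedom 3, prior 3.64). All tests are two-sided, with Benjamini-Hochberg adjustment over all tested genes and a threshold of 0.05. The pairing comes from the labels, which name the mouse of each sample. Deviations from group means correlated at 0.0986 to 0.421 within mice and at -0.378 to 0.189 between mice. The fit was checked on simulated data.

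The genes and lists were chosen with earlier results of these data known. Named from each list were up to 4 genes with the smallest p and Ghr, Stat5b, Igf1, Socs2, Cish, Bcl6 and Cux2. Jak2, Stat5a, Selenbp1, Mup5 and the other Cyp2d genes were named for their relation to the 10 genes, and other exceptions are marked in the text. Promoters came from RefSeq (GRCm38.p6). Alternatives were no block, other filters, probe means, quantile normalization, no trend, array weights and leaving out each mouse.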

Additional observations from a re-analysis of the deposited data

Results flagged for a closer look

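In 2 of the 18 groups of 4 values examined (adjacent and tumor, for 9 genes), the lowest sample stood apart by Dixon's test. For Mup3 in adjacent liver it was M48, at 10.95, with the nearest sample at 12.52 and a gap of 0.847 of the whole range. For Nudt7 in adjacent liver it was also M48, at 9.38, with the nearest at 11.57 and a gap of 0.904. Chance flags about 1 in 20 groups.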

How the results depend on the processing

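Of 87 values of the 8 genes' differences under the 11 alternatives, 86 kept their direction and their side of the threshold, 0 were reversed, and 1 lost its call, that of Keg1 without M60 (-1.22). Susd4 was not tested under the stricter filter, which left out 60% of genes, so 6 genes were called lower there. With no replicate block, 7 of the 8 genes were called lower and 1 higher, as with it, and 1799 and 1743 genes over the whole array. Leaving out each mouse gave 1071 (without M60) to 1720 (without M48) genes lower and 1238 (without M60) to 1759 (without M48) higher, with 1170 lower without M50, where fewer samples are fitted. The median shortfall of M48 in adjacent liver, -1.71, ran from -1.64 without M60 to -1.81 without M24. The difference of Cyp2d22, not called, ran from -0.16 without M48 to 0.0163 without M50, where its sign turned, and the cause was not tested. Settings applied to the other lists and named genes were chosen after seeing the data. Under the stricter filter 3 female-biased genes were called lower, and 1 growth hormone signalling gene was called higher with no filter, with no replicate block and without any of the 4 mice. Low signal limits Moxd1 and the tumor values of Susd4.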

Other observations

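The tumor of M48 was compared with the other 3 tumors in the same way as its adjacent liver. Over the 8 tested genes its median deviation was -0.61, against -1.71 in adjacent liver. Macrophage markers were higher there too, with a median deviation of 1.27 in the tumor and 1.51 in adjacent liver, and acute phase genes with 0.52 and 0.53. For other male-biased genes the medians were -0.09 in the tumor and -0.99 in adjacent liver. Among these genes Serpina12, an adipokine gene picked out after its values were seen, was at 5.84 in the adjacent liver of M48 and at 8.07 to 8.59 in the other adjacent samples, but at 10.57 in its tumor and 10.55 to 10.99 in the others. Selenbp2 likewise had its lowest adjacent level and its largest paired rise, 1.61, in M48.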
